A study of Mus musculus with 6 samples.

Results

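Genes of the red cell lineage were followed in long-term haematopoietic stem cells (LT-HSC) of mice, 2 days after sex steroid ablation (SSA) or a sham procedure. They are the 10 named Hba-a1, Hbb-b1, Car1, Car2, Klf1, Gata1, Alas2, Ahsp, Tfrc and Ermap. They were listed by name as haemoglobin, haem and erythroid membrane genes, at a time when earlier results of these data were known. All 10 had 1 row each among 28888 genes measured. The table writes them in capitals, as HBA-A1, HBB-B1, CAR1, CAR2, KLF1, GATA1, ALAS2, TFRC and ERMAP, and lists Ahsp under its older symbol Eraf. Of these, 7 were among the 10821 genes that passed the detection filter, which asks that 3 or more of the 6 arrays reach a detection p under 0.05. The 3 others, Car2, Alas2 and Ermap, are described by their raw signals and by a fit without that filter.

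The cells were sorted from bone marrow of males of strain C56 Bl/6, as the labels write it, 2 months old, and were read on Illumina mouse BeadChips. There were 3 arrays after SSA and 3 after sham surgery. The labels name no sorting markers and do not say whether samples came from single or pooled animals, so the spread behind each p-value may be technical. The column numbers of all SSA arrays come before those of all sham arrays. If that order reflects batches, batch and surgery cannot be told apart.

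Red cells arise from stem cells through erythroid progenitors and erythroblasts. Gata1 is the master transcription factor of this path and switches on Klf1, which in turn acts on globin, haem and membrane genes. Progenitors first express Car1, then take up iron through the transferrin receptor Tfrc, make haem through Alas2, and fill with haemoglobin, whose free alpha chain is held by the chaperone Ahsp. LT-HSC stand above this path, and globin messenger is also abundant in the reticulocytes of marrow.

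The promoters of Klf1, Gata1 and Ermap, picked because they varied together across the arrays, are shown first, with that of the globin gene Hba-a1. Tfrc shared their low SSA 1 and sham 1 arrays, but its promoter is not shown. Whether any word goes with the array pattern was not tested. Of the 10 genes, 6 had a promoter in the RefSeq table of build GRCm38.p6. Each sequence is the 250 bases before the start site, read 5′ to 3′ on the gene's strand. Capitals mark matches on either strand to either of 2 short words. The GATA word, which GATA factors are known to bind, was searched as AGATAA or as TGATAA, with a last base of G also taken. The CACCC word, which Klf1 is known to bind, was searched as CCNCNCCC, where N is any base.
Klf1 (chr8:84901732-84901981, + strand): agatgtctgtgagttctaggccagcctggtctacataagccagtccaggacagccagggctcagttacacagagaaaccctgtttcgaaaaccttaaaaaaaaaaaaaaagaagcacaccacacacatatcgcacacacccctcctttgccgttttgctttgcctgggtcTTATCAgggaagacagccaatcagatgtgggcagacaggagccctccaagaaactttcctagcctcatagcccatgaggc
Gata1 (chrX:7967911-7968160, - strand): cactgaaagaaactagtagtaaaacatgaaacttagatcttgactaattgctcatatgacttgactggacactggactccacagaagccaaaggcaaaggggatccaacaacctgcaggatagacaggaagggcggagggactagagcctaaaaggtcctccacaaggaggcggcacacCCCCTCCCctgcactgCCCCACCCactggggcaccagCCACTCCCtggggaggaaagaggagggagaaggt
Ermap (chr4:119189996-119190245, - strand): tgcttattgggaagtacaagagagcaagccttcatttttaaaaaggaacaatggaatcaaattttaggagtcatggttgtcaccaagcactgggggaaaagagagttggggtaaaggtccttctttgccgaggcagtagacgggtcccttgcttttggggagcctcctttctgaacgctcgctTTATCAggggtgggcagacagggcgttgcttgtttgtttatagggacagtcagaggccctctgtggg
Hba-a1 (chr11:32283422-32283671, + strand): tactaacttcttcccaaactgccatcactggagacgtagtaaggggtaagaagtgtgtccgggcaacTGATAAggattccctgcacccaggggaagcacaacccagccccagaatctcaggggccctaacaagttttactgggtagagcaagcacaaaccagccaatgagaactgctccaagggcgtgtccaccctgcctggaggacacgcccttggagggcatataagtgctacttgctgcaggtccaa
The GATA words matched 1 time in each of Klf1, Ermap and Hba-a1 and in none of the Gata1 bases shown. In Klf1 the match spans bases -80 to -75 from the start site, in Ermap bases -67 to -62 and in Hba-a1 bases -183 to -178. The CACCC word matched 3 times in Gata1, nearest at bases -34 to -27, and not in the other 3. Of the 2 genes with a window not shown, Alas2 held 1 GATA match and 4 CACCC matches. Tfrc had 2 windows listed, of which only the first was searched, and it held 3 CACCC matches. Several of these CACCC matches overlap. Of 32851 windows of the same length in the table, 26.5% hold a GATA word and 45.9% the CACCC word, which also matches some GC-rich boxes. These matches describe letters and not bound sites.

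The 10 genes stood lower after SSA on average, and none passed the test. In limma with Benjamini-Hochberg adjustment over all genes, 0 of the 7 members that passed the filter and 0 of the 3 others were called, against a background of 0% of 10821 genes and 0% of 28888 without the filter. Adjusted p values of the 10 ran from 0.688 to 0.901. The median log2 fold change of the 10, SSA minus sham, was -0.42, while that of all 10821 genes was 0.00077, of which 49.2% stood lower. The members' median moved to -0.049 without sham 2 and to -0.091 without SSA 1. Of all genes, 7.87% had an unadjusted p under 0.05, and 1 member did, Alas2, at 0.0229 in the fit without the filter, where 2.76% of genes stood lower at that level. Since each array holds RNA of many cells, fewer erythroid cells and less erythroid RNA per cell cannot be told apart.

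The raw signals of the 10 genes are plotted by array, in intensity units. An array's background, by the constants that the authors subtracted, lay between 126.6 and 138.1.

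**Figure D1:**
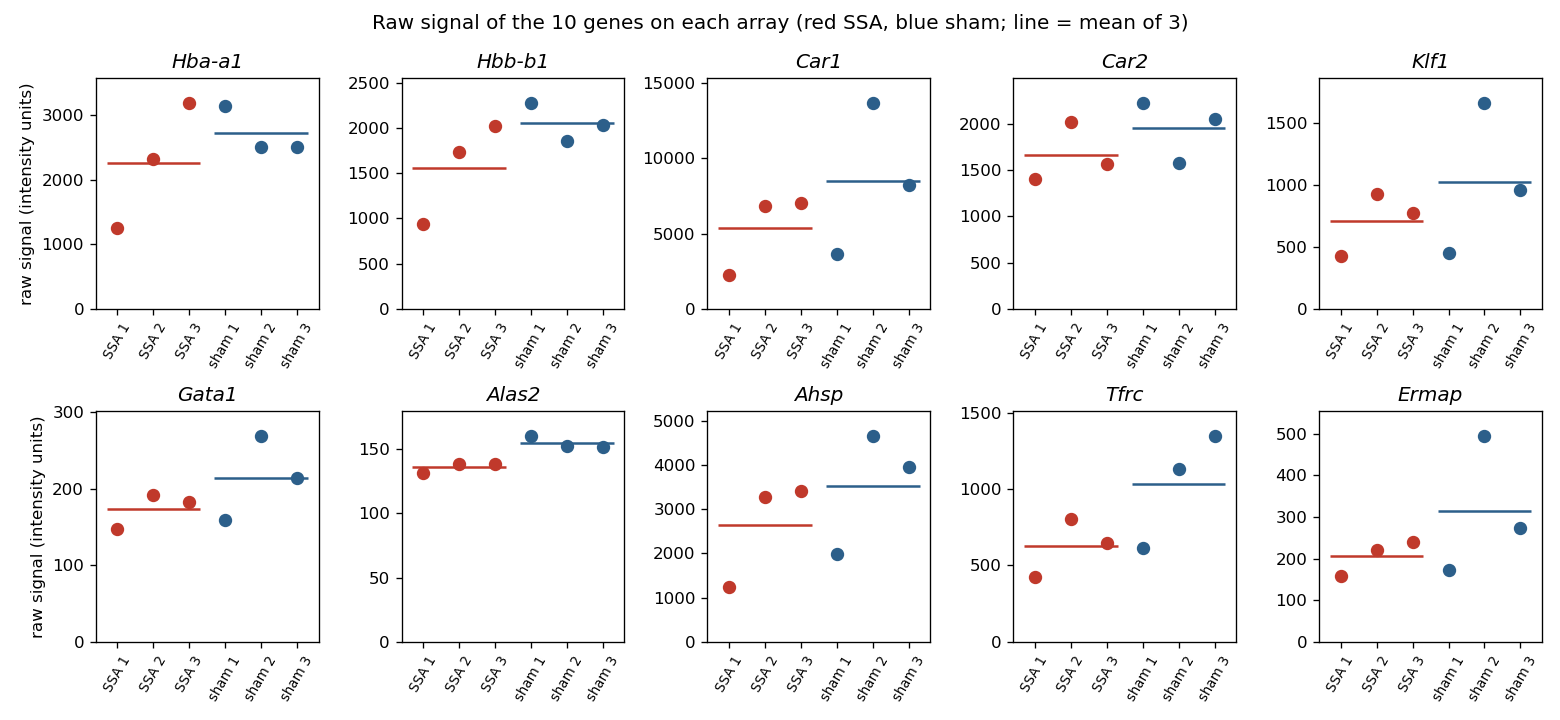
Raw signal (intensity units, axes from 0) of each of the 10 genes on the 3 SSA arrays (red) and the 3 sham arrays (blue), with a line at each group's mean. Car1, Klf1, Ermap, Gata1 and Ahsp share low SSA 1 and sham 1 arrays and a high sham 2 array, the globin genes do not, and only Alas2 has groups that do not overlap.

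Gata1 had raw signals of 147.7, 191.4 and 181.8 on SSA 1, 2 and 3 and 159.3, 268.5 and 214.4 on sham 1, 2 and 3. The lowest sham array lay between SSA 1 and SSA 3, so the groups overlapped. In the fit, the log2 fold change was -0.10 ± 0.093 (SE), with an adjusted p of 0.802 in limma. Gata1 was dim, detected on 2 arrays of each group, and the background setting matters for it. Without sham 2 the difference was -0.0053, and without sham 1 it was -0.17. With the background taken from the detection curve, a setting explained under the processing, the log2 fold change was -0.68.

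Klf1, whose loss in mice is known to impair beta globin synthesis, gave 427.0, 920.9 and 770.6 on the SSA arrays. On the sham arrays it gave 450.8, 1656.6 and 953.6. Sham 1 lay close to SSA 1, the lowest array of all, and sham 2 was the highest. After normalisation the level was 8.496 ± 0.62 in SSA and 8.99 ± 1.45 in sham (log2, SD, n = 3). Its log2 fold change was -0.49 ± 0.82 (SE), with a 95% interval from -2.59 to 1.61 and an adjusted p of 0.901 in limma. Without sham 2 it turned to 0.31, and without sham 1 it was -1.11.

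Car1, a carbonic anhydrase that marks early erythroid progenitors in the mouse, gave 2271.4, 6821.5 and 7023.9 after SSA and 3612.7, 13686.3 and 8248.6 after sham surgery. Within the sham group the highest array was 3.79 times the lowest, and within SSA 3.09 times, while the group means differed 1.59-fold. Car1 had a log2 fold change of -0.60 ± 0.74 (SE) and an adjusted p of 0.857 in limma. Without sham 2 it was -0.025, without SSA 1 it was -0.066, and without sham 1 it was -1.13.

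Car2, a second carbonic anhydrase of red cells that many other tissues also express, behaved otherwise. Its signals were 1405.2, 2025.7 and 1566.0 in SSA and 2225.4, 1578.3 and 2050.0 in sham. SSA 2 lay above sham 2, and sham 1, low for Car1, was the highest array here. In the RefSeq gene table Car1 and Car2 lie near each other on the same chromosome, with Car3 between them. The detection score put Car2 above background on 1 array only, although every signal was far above the background constants, so the score was not read as absence. SSA minus sham, the log2 fold change was -0.20 ± 0.17 (SE) without the filter, with an adjusted p of 0.869 in limma. It was -0.045 without sham 1, and 0.045 with SSA 1 and sham 1 both left out.

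Ahsp followed Car1 array by array. Its raw signals were 1230.9, 3284.3 and 3406.3 after SSA and 1996.9, 4656.8 and 3957.0 after sham surgery. From low to high, the 6 arrays stood in the same order as for Car1. The log2 fold change was -0.47 ± 0.64 (SE), with an adjusted p of 0.872 in limma. Without SSA 1 the difference was 0.073, and without sham 2 it was -0.063.

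The adult globin genes were detected on all 6 arrays and followed a different order. Hba-a1, an alpha chain gene, gave 1249.3, 2323.3 and 3185.9 on SSA 1, 2 and 3 and 3141.4, 2513.1 and 2501.0 on sham 1, 2 and 3. Hbb-b1, a beta chain gene, gave 935.1, 1733.5 and 2019.9 after SSA and 2279.1, 1861.4 and 2039.0 after sham surgery. In the raw signal of both, SSA 1 stood apart below 5 arrays that lay close together, and sham 1 was the highest or second highest. The raw signals of the 3 sham arrays spread by only 1.26-fold for Hba-a1 and 1.22-fold for Hbb-b1, from lowest to highest. Normalisation widened this, with log2 sham levels from 10.63 to 11.42 for Hba-a1 and from 10.25 to 10.86 for Hbb-b1. Sham 3 was then the lowest sham array of both.

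The log2 fold change of Hba-a1 was -0.38 ± 0.47 (SE) and that of Hbb-b1 was -0.54 ± 0.43, with adjusted p values of 0.857 and 0.781 in limma. Without SSA 1 they were 0.026 and -0.13. With SSA 1 and sham 1 both left out they were 0.18 and -0.018. The 300-base promoter windows of Hba-a1 and its neighbour Hba-a2 share a run of 297 bases. Hba-a2 has no row in the table, and a probe may not tell the 2 transcripts apart. C57BL/6 mice are known to carry the beta genes Hbb-bs and Hbb-bt, which have no row under those names, so which beta gene gave the Hbb-b1 signal is uncertain.

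Of 12 other globin genes listed, 9 had a row and 0 passed the filter. The second adult beta gene Hbb-b2 gave 107.8 to 129.7 over the 6 arrays, and the embryonic genes Hbb-y and Hbb-bh1 gave 126.9 to 138.9 and 121.1 to 138.4. The embryonic alpha gene Hba-x gave 110.6 to 132.5. None of these 4 was detected on any array. Myoglobin, Mb, was detected on 1 array.

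Alas2, the erythroid first enzyme of haem synthesis, was the only member whose groups did not overlap. It gave 131.7, 138.1 and 138.6 in SSA and 160.2, 152.7 and 151.9 in sham. Every SSA array lay below every sham array, which held for 5.68% of genes without the filter and 6.09% of genes with it. The row was not well above background on any SSA array and was detected on 2 of 3 sham arrays. On the normalised scale, where dim signals are compressed, the measured means were 7.04 in SSA and 7.09 in sham. With each SSA level raised to at least the lowest detected level of its array, the sham mean was 1.027-fold higher. That figure carries no sampling error, and its sham mean includes sham 3, which was not detected. The fitted log2 fold change was -0.045 ± 0.014 (SE), with an adjusted p of 0.782 in limma. It was -0.78 with the detection-curve background and -1.07 with the series matrix values.

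Tfrc, the transferrin receptor through which dividing cells and above all erythroblasts take up iron, had the largest difference of the 10 in the main setting. The signals were 425.6, 802.7 and 647.7 on SSA 1, 2 and 3 and 614.4, 1134.3 and 1348.7 on sham 1, 2 and 3. Sham 1 lay below SSA 2 and SSA 3, so the groups overlapped. In the fit, the log2 fold change was -0.87 ± 0.49 (SE), with a 95% interval from -2.14 to 0.40 and an adjusted p of 0.688 in limma. It stayed below 0 without any one array, between -1.34 without sham 1 and -0.52 without sham 2.

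Ermap, an erythroid membrane adhesion protein of the butyrophilin family, gave 159.2, 221.5 and 240.0 after SSA. After sham surgery it gave 171.9, 494.7 and 273.8. Sham 2 stood far above the other 5 arrays, and sham 1 lay below SSA 2 and SSA 3. The score detected Ermap on 0 SSA arrays and 1 sham array, although sham 2 lay far above the background constants, so, as for Car2, it was not read as absence. The normalised level was 7.19 ± 0.10 in SSA and 7.49 ± 0.54 in sham (log2, SD, n = 3). Its log2 fold change was -0.30 ± 0.29 (SE), with an adjusted p of 0.878 in limma, and -0.80 with the detection-curve background. Without sham 2 it was 0.011.

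**Figure D2:**
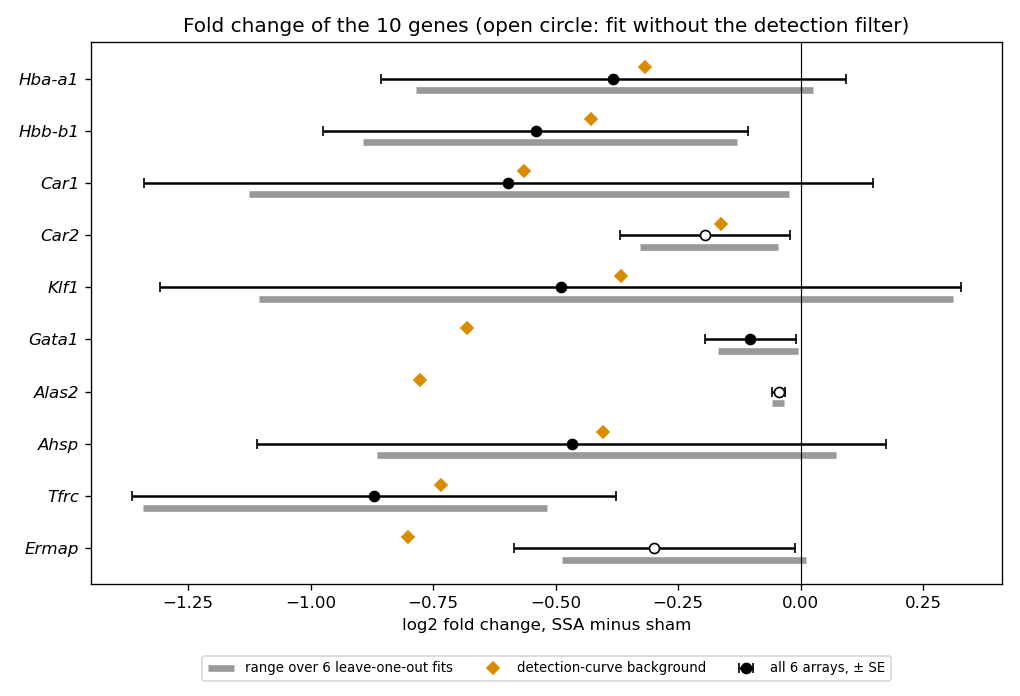
Log2 fold change, SSA minus sham, of each gene: circles are the fit on 6 arrays with its SE (open without the detection filter), grey bars the range when each array is left out, diamonds the detection-curve background. All circles lie below 0, and the grey bars of Hba-a1, Klf1, Ahsp and Ermap cross 0.

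Apart from Alas2, the groups overlapped for every member, and orders of the arrays recurred between members. In raw signal SSA 1 was the lowest array for all 10, against 20.6% of all genes that passed the filter. For 6 of them, Car1, Ahsp, Klf1, Gata1, Ermap and Tfrc, sham 1 came next, against 7.84% of all genes. For the first 5 of these, sham 3 and then sham 2 were the highest, an order held by 0.943% of all genes. This order was looked for after the values had been seen and is a description. After quantile normalisation SSA 1 was the lowest for 9 of 10, against 16.1% of all genes. For Klf1 sham 1 was then the lowest. Sham 1 came next after SSA 1 for 5 members, against 541 of all 10821 genes. The whole order, with sham 3 and then sham 2 highest, held for only 2 members, Gata1 and Tfrc. Of all genes, 1.39% held it on that scale.

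The size of this spread is best seen within the sham group. Above the background constants, sham 2 was 3.89 times sham 1 for Car1 and 4.77 times for Klf1. It was 2.43 times for Ahsp and 2.08 times for Tfrc. For the globin genes it was 0.792 times (Hba-a1) and 0.807 times (Hbb-b1), and for Car2 0.693 times, so these 3 ran the other way between the same 2 arrays. Within the SSA group, SSA 1 was 0.315 to 0.495 times the mean of SSA 2 and SSA 3 for 6 members and 0.766 times for Car2. Gata1, Ermap and Alas2 are left out of these ratios, since their signals lay near background on SSA 1, as did those of Gata1 and Ermap on sham 1.

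**Figure D3:**
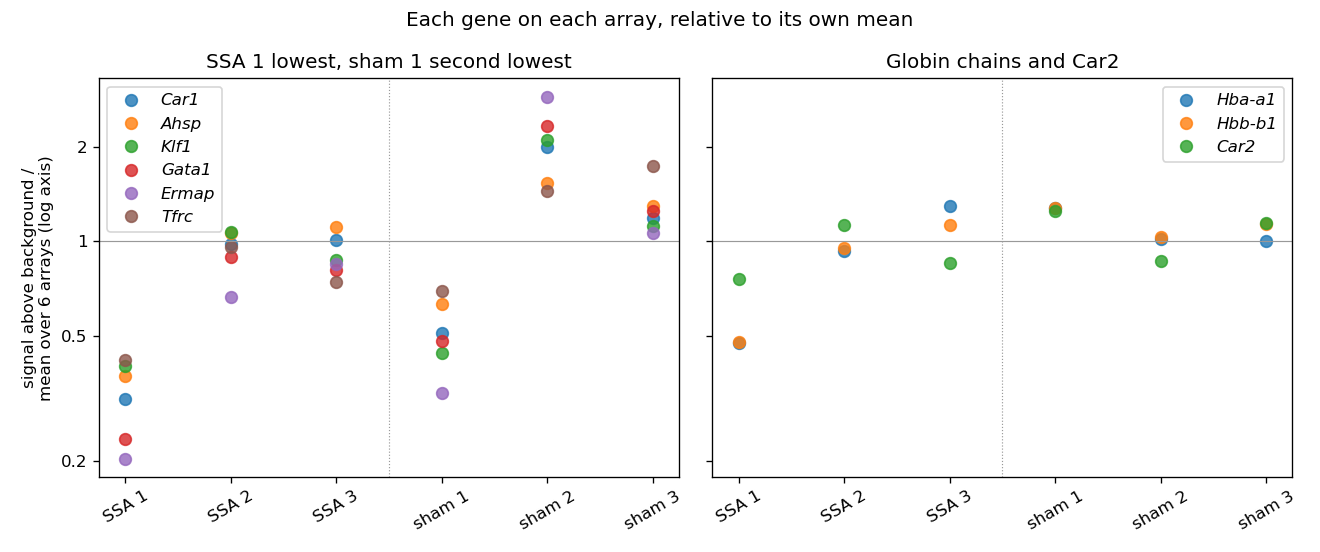
Signal above background of each gene on each array, divided by its own mean over the 6 arrays (log axis). On the left, the 6 genes with SSA 1 lowest and sham 1 second lowest. On the right, the globin genes and Car2, for which sham 1 lies above the mean. Alas2, near background, is not drawn, and the points of Gata1 and Ermap on SSA 1 and sham 1 lie near background.

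The genes whose levels over the 6 arrays were most like the mean of the 7 members that passed the filter were Leprot, Rnf19b, Gm5801, Atp5o, Bax, Tuba8, Rps27a and Smad6, and 2 rows with the provisional names LOC100046081 and LOC545750. Their Pearson r with that mean over 6 arrays ran from 0.978 to 0.996, and 2.87% of other genes had an r over 0.9. Of the members themselves, Car1 and Ahsp had an r of 0.982 and 0.979, and Hba-a1 and Hbb-b1 of 0.686 and 0.748, each being itself part of that mean, which raises its r. The points are the same 6 arrays for every gene and include both surgery groups, so r is a description.

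Other genes of the red cell path were read from 7 lists, on haem synthesis, haem handling, iron, membrane and skeleton, transcription factors, erythropoietin signalling and red cell enzymes. Of their 102 genes that passed the filter 0 were called in either direction, and 12 had an unadjusted p under 0.05, of which 7 were higher after SSA, against 852 of all 10821 genes, of which 519 were higher. Lower values were found for 73 of 102, with a median log2 fold change of -0.062. Of 6 housekeeping genes that passed the filter 5 stood lower, with a median of -0.088. Their summed level ran from 46233 to 47810 in SSA and from 49263 to 51084 in sham. A small shift down was thus not particular to the red cell lists. After normalisation sham 2 was the highest array for 52 of the 102 genes, or 51.0%, against 26.6% of all genes. SSA 1 was the lowest for 33.3% of the 102, against 16.1%. Both held for 25.5%, against 9.38% of all genes. The lists differed in this, with 6 of 14 haem synthesis, 8 of 21 membrane and 2 of 7 haem handling genes. Both held for 2 of 9 erythropoietin signalling, 3 of 15 red cell enzyme and 3 of 16 iron genes. The share was lowest for transcription factors, with 2 of 20. Genes named after their values were seen therefore do not stand for their lists.

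Of 14 haem synthesis genes 12 stood lower, with a median of -0.062. The mitochondrial iron importer Slc25a37 stood at -0.28 ± 0.090 (SE) and Slc25a39, a carrier of the same family, at -0.27 ± 0.13. The enzymes Alad, Urod and Uros stood at -0.074, -0.065 and -0.059, and the housekeeping first enzyme Alas1 at -0.021. With the detection-curve background Uros stood at -0.32. Slc25a38, the mitochondrial glycine carrier for haem synthesis, named after its values were seen, gave 532.0, 792.5 and 744.6 after SSA and 650.3, 925.0 and 1040.4 after sham surgery. SSA 1 and sham 1 were its lowest arrays, as for Car1.

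Of 21 membrane and skeleton genes 15 stood lower, with a median of -0.054, or -0.23 with the detection-curve background. Sham 2 was the highest array for 15 of 21. The water channel gene Aqp1 gave 1273.3, 2715.0 and 2770.0 in SSA and 1686.3, 4872.9 and 3465.6 in sham. Its arrays stood in the order of Car1, and its log2 fold change was -0.49 ± 0.64 (SE). Band 3, Slc4a1, the anion exchanger of red cells, stood at -0.40 ± 0.23, and was low on SSA 1 (285.5) but not on sham 1 (576.2). Cd59a, which guards red cells against complement, and the glucose transporter gene Slc2a1 stood higher, at 0.60 ± 0.11 and 0.54 ± 0.21, with adjusted p values of 0.484 and 0.622 in limma.

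Of the membrane genes, Kel, the Kell blood group protease, named after its values were seen, gave 232.5, 431.4 and 382.0 on SSA 1, 2 and 3 and 250.1, 741.8 and 509.8 on sham 1, 2 and 3. SSA 1 and sham 1 were its lowest arrays and sham 2 the highest. The log2 fold change of Kel was -0.43 ± 0.46 (SE).

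Transcription factors that stem cells share with the erythroid path went both ways. Of 20, 13 stood lower, with a median of -0.038, or -0.12 with the detection-curve background. The partners of Tal1 named Ldb1 and Lmo2 stood at 0.17 ± 0.031 and 0.23 ± 0.091 (SE), and Nfe2, a globin locus factor, at 0.28 ± 0.075. Tal1 itself stood at -0.49 ± 0.19. None of these passed the test, with adjusted p values from 0.484 to 0.622 in limma. Gfi1b, a repressor of the erythroid and megakaryocyte paths named after its values were seen, gave 721.7, 1204.5 and 1106.5 on the SSA arrays. It gave 955.2, 1374.5 and 1200.9 on the sham arrays.

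In erythropoietin signalling 5 of 9 genes stood lower, with a median of -0.081, or -0.20 with the detection-curve background. Kit, the receptor of stem cell factor, stood at -0.36 ± 0.082 (SE), with an adjusted p of 0.532 in limma. The feedback inhibitor Cish stood higher at 0.88 ± 0.22 (SE), with raw signals of 1303.0, 1643.6 and 1630.5 after SSA and 1206.7, 740.2 and 1320.7 after sham surgery. It did not pass, at an adjusted p of 0.537 in limma. The receptor gene Epor, named after its values were seen, gave 195.6, 253.8 and 284.8 and then 228.0, 425.4 and 327.5. Its log2 fold change was -0.21 ± 0.19, or -0.59 with the detection-curve background.

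In iron uptake and storage 12 of 16 genes stood lower, with a median of -0.066, or -0.13 with the detection-curve background. Ferritin heavy chain, Fth1, stood at 0.075 ± 0.077 (SE), and the iron sensor Ireb2 at -0.080 ± 0.032, or -0.35 with the detection-curve background. In haem handling 5 of 7 stood lower and 2 higher, with a median of -0.19. The biliverdin reductase gene Blvrb, which red cells express strongly, gave 950.5, 1700.9 and 1820.4 in SSA and 1004.4, 2586.1 and 1772.0 in sham. Hmox2, the constitutive haem oxygenase, stood at -0.43 ± 0.11, with an adjusted p of 0.564 in limma. The 2 higher genes were Slc48a1 at 0.30 ± 0.17 and Blvra at 0.062 ± 0.14. Of 15 red cell enzymes 11 stood lower and 4 higher, with a median of -0.047. The peroxidase Gpx1 stood at -0.23 ± 0.062, and Bnip3l and Ube2o stood higher at 0.26 ± 0.12 and 0.22 ± 0.10.

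The labelled cell type was checked on HSC markers. Of 11, 10 passed the filter, and Procr did not. After SSA 8 of these 10 stood higher and 2 lower. Their log2 fold changes had a median of 0.18, and none passed the test. Kit, also on this list, gave 2070.6, 2503.7 and 1901.4 after SSA and 2704.8, 2173.1 and 3646.8 after sham surgery, and was highest on sham 3. Sca-1, Ly6a, gave 3126.7, 2961.2 and 4098.8 on SSA 1, 2 and 3 and 2787.8, 1086.3 and 2508.7 on sham 1, 2 and 3. It was lowest on sham 2, where Car1, Klf1 and Ermap were highest. The summed normalised level of the 10 HSC markers ran from 10354 to 11205 in SSA and from 7267 to 10357 in sham, and the median over them, each gene set to a mean of 0, was -0.15 on sham 2 and -0.28 on sham 3. The part of HSC content in the erythroid values was not tested.

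Markers of other cells moved with the members in part. Of 8 listed committed progenitor genes 5 were kept, of which 3 stood higher after SSA and 2 lower. The lower ones were Ctsg at -0.87 ± 0.26 (SE) and Mpo at -0.59 ± 0.23. The summed level of the 5 ran from 10982 to 13632.5 in SSA and from 13586 to 16551.5 in sham, highest on sham 2. Within SSA this sum was highest on SSA 1, where the members' median was lowest. Of 13 listed megakaryocyte and platelet genes 10 were kept, and Gp1ba, Gp6 and Itgb3 were not. Their summed level ran from 8297 to 9471 in SSA and from 6344 to 10487 in sham, lowest on sham 3 and highest on sham 2. Of 15 mature neutrophil and monocyte genes 11 were kept. Their sum ran from 10213 to 13245 in SSA and from 10257 to 19567 in sham, with the median lowest on SSA 1 (-0.43) and highest on sham 1 (0.79). S100a8, a calcium-binding protein of neutrophils, gave 411.7, 1916.8 and 2242.0 after SSA and 5258.2, 4506.0 and 1378.6 after sham surgery, so it shared with the globin genes a low SSA 1 and a high sham 1.

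Immediate-early genes, 16 of 23 kept, summed to 5840 to 17606 in SSA and 9978 to 56358 in sham, highest on sham 2 and sham 3. Eosinophil, basophil and mast cell genes, 9 of 12 kept, summed to 1545 to 2283 in SSA and 3578 to 4189 in sham. Macrophage markers were mostly below the filter, with 8 of 10 not kept, C1qa, Adgre1 and Vcam1 among them, and so were T and NK markers, with Cd3e and Cd8a not kept. B lineage markers had 4 of 10 kept. The part of these cells and programmes in the erythroid values was not tested.

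**Figure D4:**
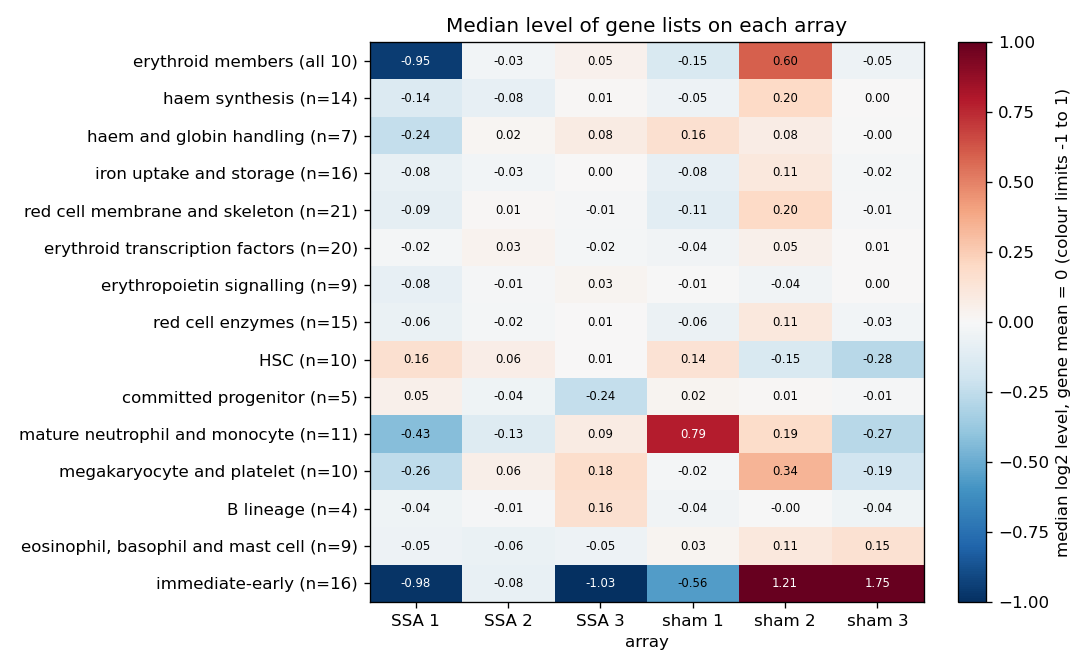
Median normalised log2 level of gene lists on each array, every gene first set to a mean of 0 over the 6 arrays (colour limits -1 to 1, values printed, n = genes that passed the filter). Lists with few genes that passed the filter and the housekeeping list are not drawn. The erythroid members are lowest on SSA 1 (-0.95) and highest on sham 2 (0.60), and the HSC markers are low on sham 2 and sham 3.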

How the data were processed

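Total RNA of sorted LT-HSC was labelled with biotin and read on 6 arrays, 3 per group. Per the file headers, the authors exported raw intensity values from GenomeStudio 1.8.0 with no normalization, 1 value per gene name and array, so probes of one name had been combined. The deposited detection score, a fraction from 0 to 1, behaves as 1 minus a detection p and was used so. The deposited series matrix, also linear intensity, equals the raw signal minus 1 constant per array within 0.1. The median raw signal was 132.3 to 145.3 and 35.8% to 37.7% of rows per array were detected. For arrays, their number limits the precision.

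Rows were named through the RefSeq gene table of GRCm38.p6, used for names, with 15991 matching a current and 5826 an older symbol, 119 several and 8837 none. Ahsp came from the row Eraf. Signals were processed with neqc (limma 3.58.1, R 4.3.3), with offset 16, quantile normalisation and log2. A gene with several rows kept the one of highest mean. SSA was compared with sham by lmFit and eBayes, two-sided, called at an adjusted p under 0.05. The fit was tested on simulated data. The neqc background mean was 168.0 to 204.2 with an SD of 194.9 to 302.7, whereas the detection curve gave 126.1 to 137.7 and 7.50 to 9.00. The main setting therefore compresses dim genes, and the detection-curve setting is the alternative with the second pair of values. Alternatives covered background, normalisation, offset, filter, rows, array weights, the replicate block and each array left out.

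The members, lists and tests were chosen with earlier results of these data known. Genes named were taken from the members, the other globins, the 4 of smallest p and 3 brightest of each list, the 10 most like the members, and those said to be named after their values were seen. Same-numbered arrays did not all pair: deviations from the group means correlated at 0.504, -0.064 and -0.291 for numbers 1, 2 and 3. The value for number 1 was the highest between any SSA and any sham array, and SSA 3 with sham 2 came next at 0.483.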

Additional observations from a re-analysis of the deposited data

How the results depend on the processing

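No member was called in any of 18 other settings, in each of which limma was run over all genes, with adjusted p values from 0.109 to 0.999. The count of called genes was 0 in the main setting, with 852 at an unadjusted p under 0.05. It was 1, and not a member, with the detection-curve background, the series matrix values and array weights, and 0 without any one array. The median log2 fold change of the 10 members, -0.42, ran from -0.73 to -0.049 without one array, the latter without sham 2, and stood at -0.23 with SSA 1 and sham 1 both left out, an alternative chosen after seeing the data. Leaving out single arrays turned the direction of 4 members: Hba-a1 ran from -0.79 to 0.026, Klf1 from -1.11 to 0.31, Ahsp from -0.87 to 0.073 and Ermap from -0.49 to 0.011. With SSA 1 and sham 1 both left out, Hba-a1 stood at 0.18 and Car2 at 0.045. The values of the 6 others kept their sign without any one array. The fit with the replicate block gave 0 calls and, as the balanced design fixes, the same median of -0.42. It took the SE of Tfrc from 0.49 to 0.20, of Ahsp from 0.64 to 0.29 and of Car1 from 0.74 to 0.34, and that of Hba-a1 from 0.47 to 0.57. Not every array correlated best with its own number. A median shift in place of quantile normalisation gave a median of -0.43. For Gata1, Alas2 and Ermap the size depends on the background setting.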
